A study of Caenorhabditis elegans with 15 samples.

Results

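The antimicrobial peptide genes of *Caenorhabditis elegans* were examined in whole-body mRNA sequencing of 3 strains. They were chosen by name, as every gene whose WormBase public name belongs to the saposin-like (*spp*), antibacterial factor (*abf*), caenacin (*cnc*), fungus-induced protein (*fip*) or *fip*-related (*fipr*) families, together with *nlp-24* to *nlp-34*. This gave 95 names, of which 94 had a value among the 20483 genes of the tables, while *spp-27* is not analysed here. The 94 genes were 30 *spp*, 6 *abf*, 11 *cnc*, 7 *fip*, 29 *fipr* and 11 *nlp* genes, and they are described as saposin-like (30), defensin-like (6) and epidermal and glycine-rich (58) genes.

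The strains were double mutants carrying *age-1(hx546)* and *gas-1(fc21)* (*age-1; gas-1* mutants), *gas-1(fc21)* mutants and wild-type N2 nematodes (wt), with 5 biological replicates of each, grown at 20 °C on OP50 *E. coli*. *gas-1* encodes a subunit of mitochondrial complex I, and *age-1* encodes a phosphoinositide kinase of insulin/IGF signaling (IIS). Both mutant strains carry *gas-1(fc21)* and there is no *age-1* single mutant among the samples, so that the effect of *age-1(hx546)* is measured only in a *gas-1* background. The study compared the double mutants to *gas-1* mutants to ask what reduced IIS changes in animals with a complex I defect. Both alleles are point mutations, so that the level of either transcript is no check of the strain labels. Since whole animals were sequenced, fewer cells of a type and less RNA per cell cannot be told apart.

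Nematodes have no antibodies and defend themselves largely with secreted peptides and proteins made by the tissues that meet microbes. Saposin-like proteins, some of which are called caenopores, can permeabilize bacterial membranes, and several are made in the intestine, where they also act on the bacteria eaten as food. The *abf* genes encode defensin-like peptides with conserved cysteines. In the epidermis, fungal infection and wounding induce glycine-rich *nlp* peptides, *nlp-29* being the best known, and caenacin peptides by way of a cascade of TIR-1 and the NSY-1, SEK-1 and PMK-1 kinases that ends on the factor STA-2, while some *cnc* genes answer to the TGF-β ligand DBL-1.

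The deposited values are FPKM, read counts scaled to transcript length and to the reads mapped. Levels of different genes are set side by side on this scale. The peptide genes are short, with a median exonic length of 479.5 bases in the saposin-like and 341.5 bases in the epidermal and glycine-rich genes. How well the scaling to length holds for such genes was not tested, so that rankings between genes are limited. FPKM summed to between 658126 and 702623 per library. Read totals are not used here, and the number of reads behind each value is unknown. Sperm genes separated 4 libraries from the others, *age-1; gas-1* replicates 2 and 5, *gas-1* replicate 2 and wt replicate 3, in which 24 sperm genes summed to between 7.89 and 21.6 FPKM, against 55.3 to 281 FPKM in the other 11 libraries. Calls that were gained or lost without these libraries are given beside the genes concerned. Intestinal, epidermal and pharyngeal markers were present in every strain. Of 8 intestinal markers 6 were higher in each mutant strain than in wt, and of 13 epidermal markers tested 11 were, with median log2 fold changes of 1.86 for the double mutants and 2.34 for *gas-1*. Of all genes tested, 44.5% were higher and 31.2% lower in the double mutants than in wt at 5% FDR, and 44.0% and 24.6% in *gas-1*. Between the mutants 19.5% were lower. Of 10 oocyte genes, all fell in the double mutants and 6 in *gas-1* relative to wt, and 7 fell between the mutants, with sums of 5482 to 6403, 6273 to 7859 and 8066 to 9954 FPKM in *age-1; gas-1*, *gas-1* and wt. Whether these marker changes reflect shifts in tissue, and whether such shifts had a part in the peptide levels, was not tested. The labels give L4 as the stage, whereas the adult collagen *col-19* averaged 732, 762 and 811 FPKM in *age-1; gas-1*, *gas-1* and wt, and the oocyte genes were abundant in every library.

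The genes spanned a wide range of levels. The highest of the 3 strain means was at least 100 FPKM in 6 genes, between 10 and 100 in 16, between 1 and 10 in 17 and below 1 in 55. Above 100 FPKM were *spp-14*, *spp-5*, *spp-17*, *spp-10*, *spp-1* and *fip-2*. Tests were limited to the 40 genes that reached 1 FPKM in 5 or more of the 15 libraries, which were 17 *spp*, 2 *abf*, 9 *nlp*, 4 *cnc*, 3 *fip* and 5 *fipr* genes. Among these 40, *abf-2*, *spp-13*, *cnc-3*, *fip-6* and *nlp-30* had no wt library at 1 FPKM. They passed the filter through the mutants alone and had little room to be anything but higher there. *fip-6* passed through the double mutants alone, which limits its comparison to *gas-1* as well. A similar limit holds for *nlp-25* and *cnc-4*. Outside *gas-1*, *nlp-25* reached 1 FPKM only in *age-1; gas-1* replicate 4 (1.19 FPKM) and wt replicate 5 (1.82 FPKM). In wt, *cnc-4* reached it only in replicate 3 (1.26 FPKM). Counts over the genes tested are therefore given as descriptions. The other 54 genes reached no strain mean above 0.981 FPKM, and *fip-4*, *fip-7*, *fipr-12*, *fipr-25* and *fipr-27* were listed at 0 in all 15 libraries.

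**Figure D1:**
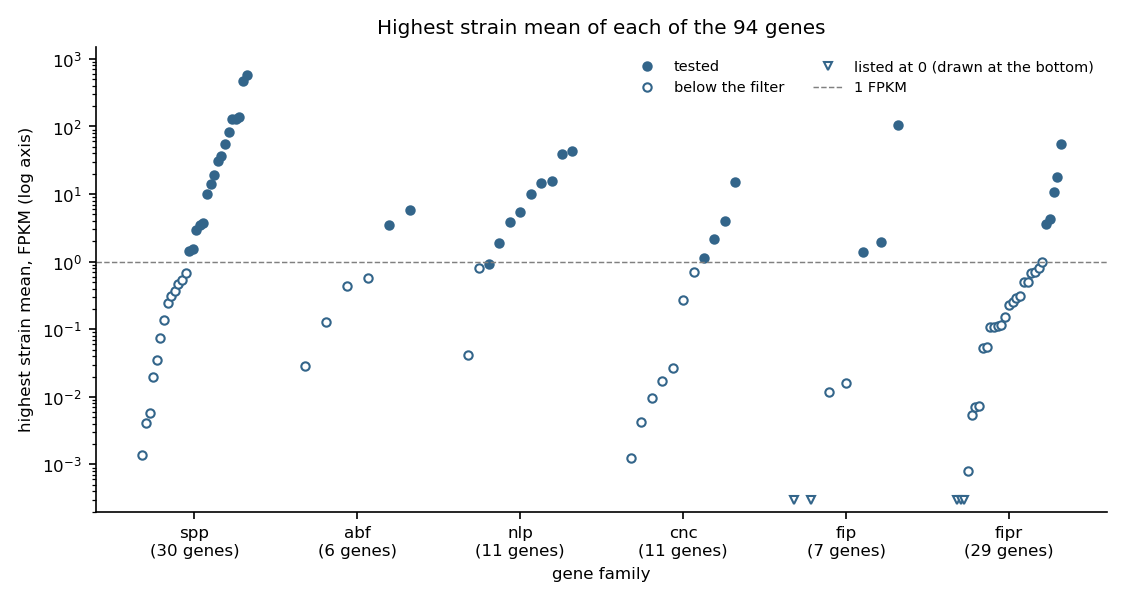
Highest of the 3 strain means of each of the 94 genes in FPKM (log axis), by gene family; filled points are the 40 genes tested, open points the 54 below the filter, and triangles the 5 listed at 0. The most abundant genes are saposin-like, and most *fipr* genes lie below 1 FPKM.

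In the double mutants compared to *gas-1* mutants, 17 of the 40 genes tested were higher and 2 were lower at 5% FDR (limma), where 13.5% and 19.5% of all 11648 genes tested were called higher and lower. The median log2 fold change was 0.36 over the 40 genes and -0.02 over all genes tested. Of the 17 saposin-like genes 13 rose and none fell, with a median of 0.73 (12 and 1 when quantile normalized, *spp-22* being lower). When quantile normalized, 13.5% and 22.7% of all genes were called higher and lower. Of the 21 epidermal and glycine-rich genes 3 rose and 2 fell, with a median of 0.03, and of both *abf* genes tested 1 rose. The 3 include *fip-6*, which passed the filter through the double mutants alone, and the 2 include *nlp-25*, which passed mainly through *gas-1*. In 16 of the 40 genes the libraries of the double mutants did not overlap with those of *gas-1* mutants, 14 being higher and 2 lower, where 26.3% of all genes were separated in this way. Without the 4 sperm-poor libraries 18 genes were higher and 3 lower, where 13.9% and 18.5% of all genes were. The saposin-like genes again gave 13 and 0.

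Compared to wt, 18 of the 40 genes were higher and 8 were lower in *gas-1* mutants, against 44.0% and 24.6% of all genes tested, and the medians were 0.22 and 0.14. The saposin-like genes split into 7 higher and 4 lower with a median of 0.10, and the epidermal and glycine-rich genes into 10 higher and 4 lower with a median of 0.23. Only 10 of the 40 genes had non-overlapping libraries, where 50.5% of all genes did. Scaling mattered here, since the median of all genes was 0.01 once libraries were rescaled by median-of-ratios and -0.08 once they were quantile normalized. The 40 genes then gave 15 higher and 10 lower, or 8 higher and 12 lower, where 36.4% and 34.7%, or 26.2% and 38%, of all genes did. The saposin-like genes gave 5 and 5, or 4 and 6, and the epidermal and glycine-rich genes 9 and 5, or 3 and 6 with a median of -0.06. In *age-1; gas-1* compared to wt, 26 genes were higher and 6 lower, against 44.5% and 31.2% of all genes, with medians of 0.67 and 0.14. This included 15 of the 17 saposin-like genes higher and none lower (13 and 0 by median-of-ratios, 11 and 1 when quantile normalized), 9 epidermal and glycine-rich genes higher and 6 lower (7 and 7, or 7 and 8), and both *abf* genes higher. Of all genes 39.3% and 37.3% were higher and lower by median-of-ratios, and 28.8% and 42.9% when quantile normalized. Without the 4 sperm-poor libraries the counts were 20 higher and 10 lower for *gas-1* and 26 and 7 for the double mutants, each against wt. Of all genes 46% and 27.9%, and 45.5% and 30.8%, were then called higher and lower. Double mutant and wt libraries did not overlap in 24 of the 40 genes, where 62.2% of all genes were separated. *abf-2*, *spp-13*, *cnc-3*, *fip-6* and *nlp-30*, which passed the filter through the mutants alone, are among the genes higher than wt in both mutant strains. So is *cnc-4*, which passed mainly through the mutants. *nlp-25*, which passed mainly through *gas-1*, is among the genes higher in *gas-1* than in wt. The 3 comparisons share libraries, each strain entering 2 of them, and are therefore not independent of each other.

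**Figure D2:**
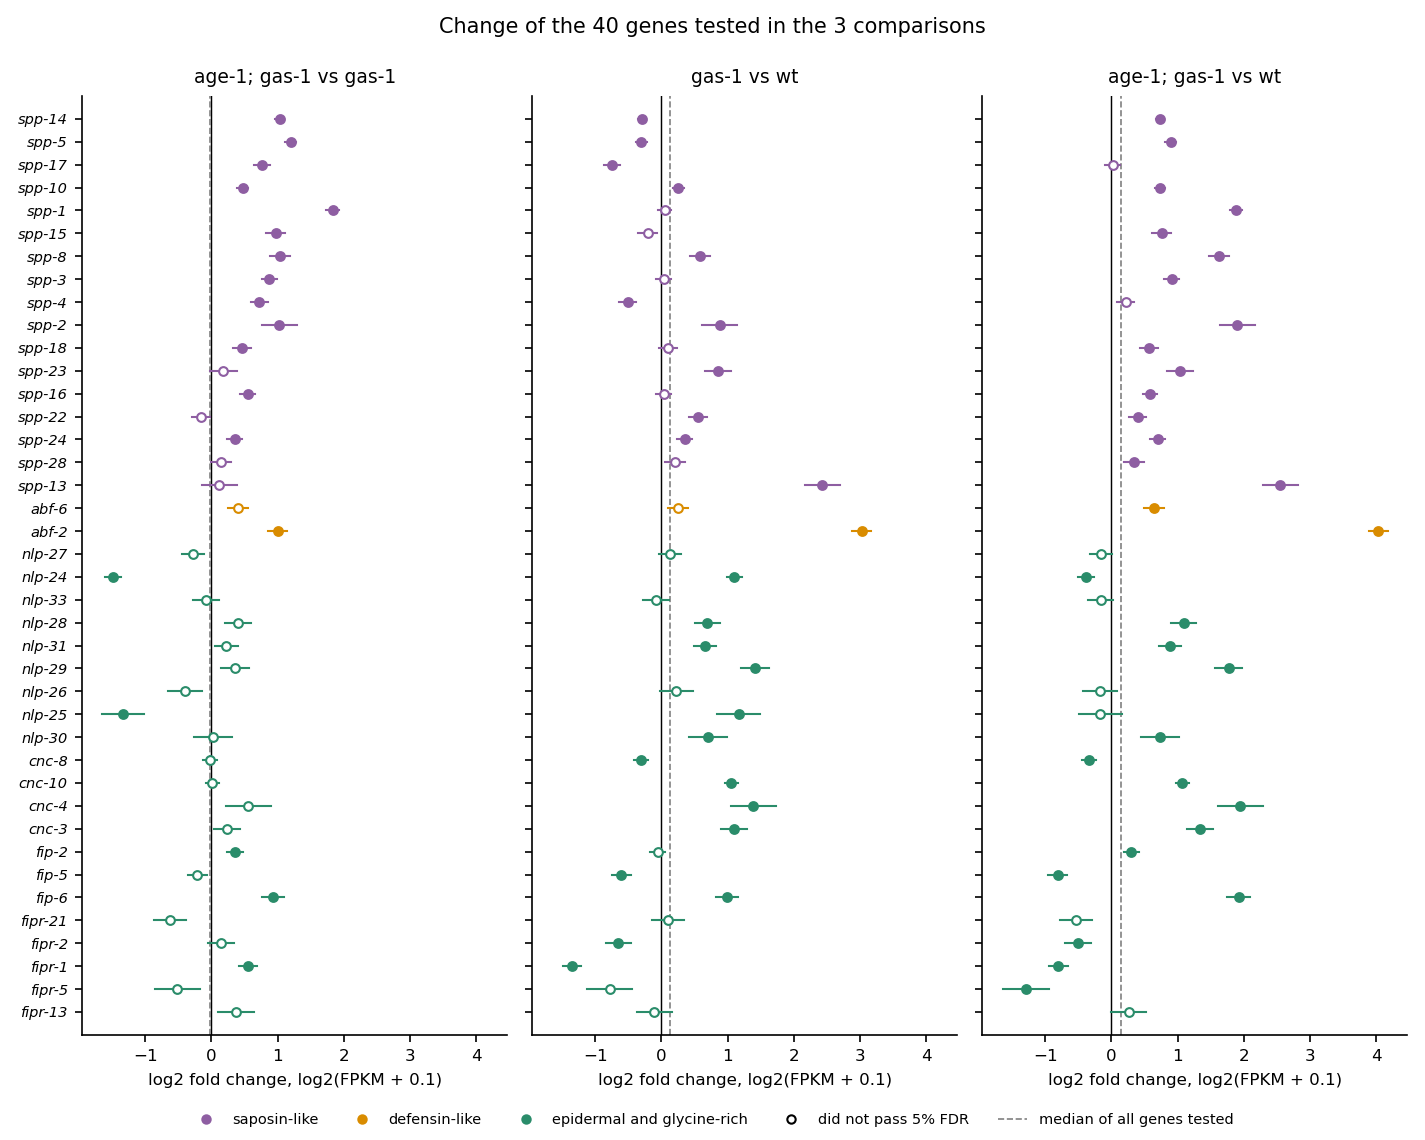
Log2 fold change on the log2(FPKM + 0.1) scale of the 40 genes tested in the 3 comparisons, with bars of 1 SE; filled points passed 5% FDR, colours give the group of genes and the dashed line the median of all genes tested. In the double mutants compared to *gas-1*, 13 of the 17 saposin-like genes lie right of 0 and passed, whereas *nlp-24* and *nlp-25* lie furthest to the left.

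The saposin-like genes held most of the summed FPKM of the peptide genes. Their summed level over 30 genes was 1621, 1722, 1664, 1753 and 1801 FPKM in *age-1; gas-1* mutants, against 802, 900.5, 778, 865 and 918 FPKM in *gas-1* mutants and 961, 1079, 900.1, 989 and 1060.1 FPKM in wt. All 5 double mutant libraries thus lay above all 10 others, while *gas-1* and wt overlapped. The sum was made up to 60.3% to 61.7% by *spp-5* and *spp-14* in the double mutants, 54.6% to 58.4% in *gas-1* and 59.1% to 60.8% in wt. The remaining 28 genes summed to 664 ± 24.2 FPKM in *age-1; gas-1*, 364 ± 35.7 FPKM in *gas-1* and 397 ± 26.4 FPKM in wt (SD, n = 5 each), so that the difference did not rest on the 2 most abundant genes.

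**Figure D3:**
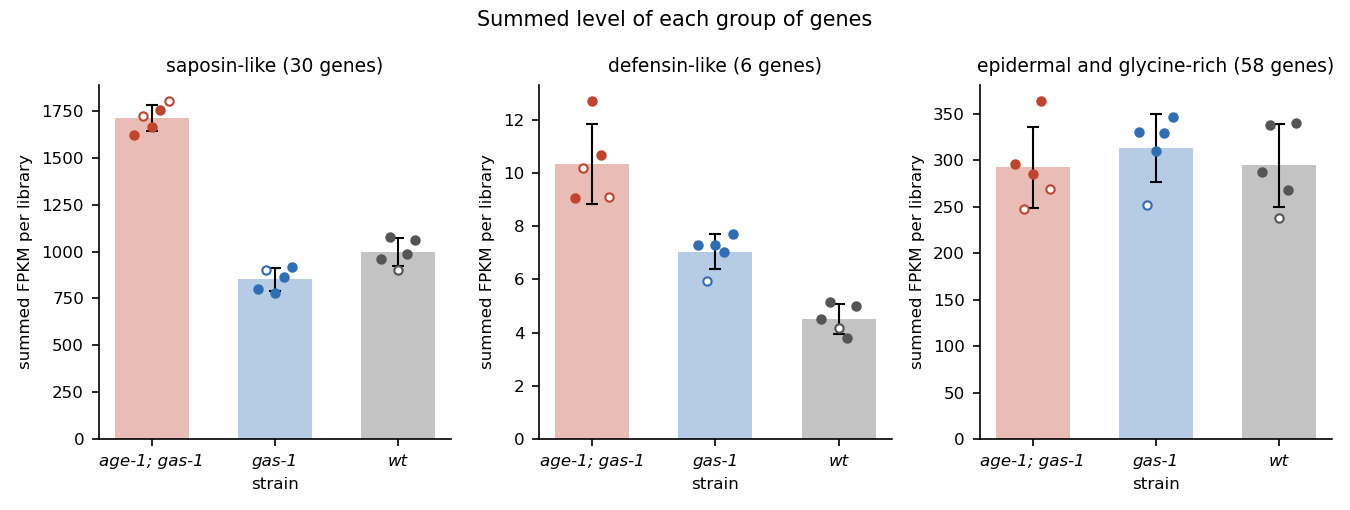
Summed FPKM of the saposin-like, defensin-like and epidermal and glycine-rich genes in *age-1; gas-1*, *gas-1* and wt; bars are means, error bars SD (n = 5), points single libraries and open points the libraries low in sperm genes. The saposin-like sums lie between 1621 and 1801 FPKM in the double mutants and at or below 1079 FPKM in all other libraries, whereas the epidermal sums of the 3 strains overlap.

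Of the 40 genes, the largest change between the mutants on the log2 scale was that of *spp-1*, which encodes a caenopore with antibacterial activity and lies on chromosome III from 10355098 to 10355668 (WBcel235, also for all positions given here). It had 114, 124, 134, 137 and 129 FPKM in *age-1; gas-1* mutants, against 33.6, 33.1, 31.1, 40.7 and 41.2 FPKM in *gas-1* mutants and 36.5, 33.9, 28.6, 34.6 and 39.8 FPKM in wt. Every double mutant library was far above the other strains, which overlapped with each other. *spp-1* rose by 1.83 on the log2 scale compared to *gas-1* (SE 0.09, adjusted p = 9.9e-09 from limma) and by 1.88 compared to wt (SE 0.09, adjusted p = 8.8e-10), and gave 0.05 for *gas-1* compared to wt (adjusted p = 0.65). An exon of *T07C4.3* overlaps *spp-1* on the opposite strand. That gene averaged 15.7, 18.8 and 20.4 FPKM in *age-1; gas-1*, *gas-1* and wt, and gave -0.25 between the mutants (limma adjusted p = 0.0017).

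The 2 most abundant genes shared another pattern. *spp-5*, which encodes the caenopore best studied for killing *E. coli* in the gut lumen, had 439.8, 492, 462, 477 and 485 FPKM in *age-1; gas-1* mutants, against 187, 212, 179, 207 and 246 FPKM in *gas-1* mutants and 258, 271, 218, 242 and 281 FPKM in wt. For *spp-14*, a saposin-domain gene on chromosome X from 7725979 to 7726383, the values were 557, 562, 542, 601 and 626 FPKM in *age-1; gas-1*, against 276, 314, 275, 293 and 255 FPKM in *gas-1* and 326, 381, 314, 358 and 358 FPKM in wt. In both genes the double mutants were above all other libraries, and *gas-1* mutants lay lower than wt on average, with 1 *gas-1* library of each gene reaching the range of wt. *spp-5* rose by 1.20 compared to *gas-1* (SE 0.08, limma adjusted p = 1.5e-07) and by 0.89 compared to wt (adjusted p = 2.4e-07), and it fell by 0.30 in *gas-1* compared to wt (SE 0.08, adjusted p = 0.0046). *spp-14* rose by 1.03 (SE 0.06, limma adjusted p = 5.1e-08) and by 0.74 (adjusted p = 1.3e-07) in the same comparisons of the double mutants, and fell by 0.30 in *gas-1* compared to wt (adjusted p = 0.00091).

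*spp-17* and *spp-4* were lowest in *gas-1* mutants as well, with levels of the double mutants close to those of wt. *spp-17* had 146, 136, 120.0, 145 and 146 FPKM in *age-1; gas-1*, against 79.7, 99.3, 75.2, 75.4 and 77.7 FPKM in *gas-1* and 116, 176, 111, 159.6 and 131 FPKM in wt. The *gas-1* libraries were below all others, while double mutants and wt overlapped. *spp-17* rose by 0.77 compared to *gas-1* (SE 0.12, limma adjusted p = 0.00026) and fell by 0.75 in *gas-1* compared to wt (adjusted p = 7.8e-05), and the double mutants gave 0.02 compared to wt (SE 0.12, adjusted p = 0.90). *spp-4* had 28.2, 34.5, 30.7, 27.2 and 35.3 FPKM in *age-1; gas-1*, against 17.2, 17.8, 17.2, 19.6 and 22.4 FPKM in *gas-1* and 24.9, 27.8, 28.4, 19.9 and 34.5 FPKM in wt. The *gas-1* libraries were low, with 1 of them above the lowest wt library. *spp-4* rose by 0.73 compared to *gas-1* (limma adjusted p = 0.0006) and fell by 0.51 in *gas-1* compared to wt (adjusted p = 0.0027). Its value of 0.22 in *age-1; gas-1* compared to wt did not pass (adjusted p = 0.13), and leaving out wt replicate 5 moved this to 0.31 (adjusted p = 0.028).

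**Figure D4:**
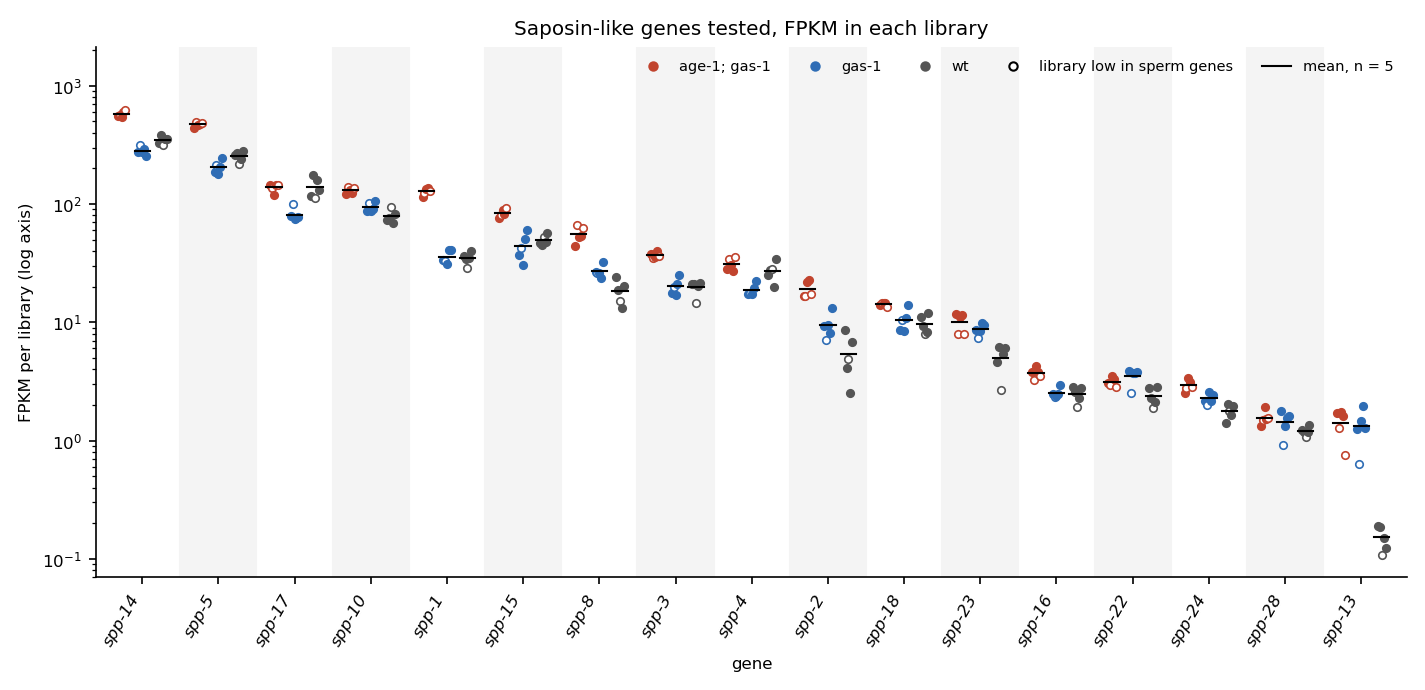
FPKM of the 17 saposin-like genes tested in each library (log axis), with *age-1; gas-1*, *gas-1* and wt side by side for each gene; lines are means (n = 5) and open points the libraries low in sperm genes. In 11 genes all 5 double mutant points lie above all *gas-1* points, and in *spp-13* the wt points lie far below both mutants.

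*spp-2*, *spp-8* and *spp-10* were highest in the double mutants, lower in *gas-1* mutants and lowest in wt. *spp-2* had 16.5, 16.6, 21.98, 22.8 and 17.3 FPKM in *age-1; gas-1*, against 9.24, 7.06, 9.51, 8.15 and 13.2 FPKM in *gas-1* and 8.65, 4.11, 4.91, 2.51 and 6.78 FPKM in wt. *spp-8* had 44.5, 66.4, 52.3, 53.5 and 62.5 FPKM in *age-1; gas-1*, against 26.8, 26.0, 26.1, 23.7 and 32.4 FPKM in *gas-1* and 24.3, 18.7, 15.1, 13.1 and 20.3 FPKM in wt. *spp-10*, which encodes a saposin-like protein, had 122, 138, 132, 125 and 136 FPKM in *age-1; gas-1*, against 87.7, 101, 86.8, 91.0 and 106 FPKM in *gas-1* and 73.9, 76.2, 94.2, 69.7 and 81.9 FPKM in wt. In these 3 genes the double mutants did not overlap with either strain, whereas *gas-1* and wt overlapped.

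Compared to *gas-1* mutants, *spp-2* rose by 1.02 (SE 0.26, limma adjusted p = 0.0083), *spp-8* by 1.04 (SE 0.15, adjusted p = 0.00016) and *spp-10* by 0.47 (SE 0.08, adjusted p = 0.0004). In *gas-1* compared to wt, *spp-2* rose by 0.88 (limma adjusted p = 0.0085), *spp-8* by 0.58 (adjusted p = 0.0035) and *spp-10* by 0.26 (adjusted p = 0.0089). The call for *spp-2* in *gas-1* was lost after quantile normalization (0.54, adjusted p = 0.063) and that for *spp-10* after median-of-ratios rescaling (0.13, adjusted p = 0.12). Compared to wt, the double mutants gave 1.90 for *spp-2*, 1.62 for *spp-8* and 0.73 for *spp-10* (limma adjusted p = 1.3e-05, 2.8e-07 and 1e-06).

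*spp-3*, *spp-15* and *spp-18* were higher in the double mutants than in both other strains, with no call between *gas-1* and wt. *spp-3* had 37.5, 35.2, 35.4, 40.2 and 36.1 FPKM in *age-1; gas-1*, against 17.8, 19.9, 17.0, 21.1 and 25.3 FPKM in *gas-1* and 21.2, 20.9, 14.6, 20.4 and 21.5 FPKM in wt. *spp-15* had 75.4, 80.9, 89.5, 83.0 and 92.2 FPKM in *age-1; gas-1*, against 36.8, 42.1, 30.5, 50.6 and 60.1 FPKM in *gas-1* and 46.5, 45.1, 52.4, 47.6 and 56.8 FPKM in wt. *spp-18* had 14.1, 14.5, 14.4, 14.5 and 13.3 FPKM in *age-1; gas-1*, against 8.62, 10.5, 8.37, 10.8 and 13.9 FPKM in *gas-1* and 11.02, 9.22, 7.95, 8.22 and 11.9 FPKM in wt. The libraries of *spp-3* and *spp-15* in the double mutants lay above all others, while 1 *gas-1* library of *spp-18* reached into the double mutants. The rise compared to *gas-1* was 0.88 for *spp-3*, 0.97 for *spp-15* and 0.46 for *spp-18* (limma adjusted p = 5.8e-05, 0.00017 and 0.016), and compared to wt it was 0.91, 0.76 and 0.56 (adjusted p = 5e-06, 0.00022 and 0.0015). *spp-15* gave -0.21 in *gas-1* compared to wt (limma adjusted p = 0.21), and without *gas-1* replicate 5 it passed the test at -0.33 (adjusted p = 0.028). *C48E7.6*, which overlaps *spp-15* on the opposite strand, averaged 4.40, 3.58 and 2.98 FPKM in *age-1; gas-1*, *gas-1* and wt, with 0.28 between the mutants (limma adjusted p = 0.046).

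*spp-23* rose in both mutants compared to wt and not between them. It had 11.8, 7.92, 11.04, 11.5 and 7.88 FPKM in *age-1; gas-1*, against 8.67, 7.34, 8.42, 9.77 and 9.55 FPKM in *gas-1* and 4.58, 6.20, 2.69, 5.41 and 6.02 FPKM in wt. Every mutant library was above every wt library, and the lowest values of each strain came from the sperm-poor libraries. *spp-23* rose by 0.85 in *gas-1* (SE 0.20, limma adjusted p = 0.0017) and by 1.03 in *age-1; gas-1* compared to wt (adjusted p = 0.00028). Between the mutants it gave 0.18 (adjusted p = 0.53), and without the 4 sperm-poor libraries 0.33 (adjusted p = 0.027).

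The other 5 saposin-like genes tested had strain means below 4 FPKM. *spp-13* averaged 1.42 ± 0.418 FPKM in *age-1; gas-1* and 1.32 ± 0.481 FPKM in *gas-1*, against 0.152 ± 0.0365 FPKM in wt (SD, n = 5 each), with log2 fold changes of 2.55 and 2.43 compared to wt (limma adjusted p = 8.2e-07 and 2.4e-06) and 0.12 between the mutants (adjusted p = 0.78). It passed the filter through the mutants alone, which left little room for anything but a rise relative to wt. *spp-16* rose by 0.55 compared to *gas-1* (limma adjusted p = 0.0017) and by 0.58 compared to wt (adjusted p = 0.00025), the second call being lost after quantile normalization, which also called it lower in *gas-1* than in wt (-0.43). *F32D8.7*, which overlaps *spp-16* on the opposite strand, averaged 0.787, 1.19 and 0.327 FPKM in *age-1; gas-1*, *gas-1* and wt, with 1.56 in *gas-1* compared to wt (limma adjusted p = 1.2e-05). *spp-22* and *spp-24* were called higher in *gas-1* than in wt (0.55 and 0.35, limma adjusted p = 0.0023 and 0.012), and quantile normalization left 0.09 and -0.15. *spp-22*, *spp-24* and *spp-28* were called higher than wt in the double mutants by 0.40, 0.70 and 0.35 (limma adjusted p = 0.015, 4.9e-05 and 0.049), but after quantile normalization these values were -0.18, 0.10 and -0.32, so that the direction of *spp-22* and *spp-28* turned with the scaling. *spp-24* also rose by 0.35 compared to *gas-1* (limma adjusted p = 0.026), a call lost on leaving out replicate 1, 2 or 4 of *gas-1* or replicate 3 or 4 of the double mutants (largest adjusted p = 0.069) and without the 4 sperm-poor libraries (0.34, adjusted p = 0.092). The call of *spp-28* was lost on leaving out any of 11 single libraries, and without the sperm-poor libraries it also passed in *gas-1* compared to wt (0.32, limma adjusted p = 0.039).

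Neighbouring genes did not always move alike. *spp-3*, *spp-2*, *spp-6*, *spp-4* and *spp-5* lie within 5.4 kb of chromosome X, from 7314969 to 7320354. The 4 of them that were tested all rose in the double mutants compared to *gas-1* mutants, by 0.73 to 1.20, where 13.5% of all genes were called higher. The same 4 ranged from -0.51 to 0.88 in *gas-1* compared to wt, with 1 called higher and 2 called lower, where 44.0% and 24.6% of all genes were. *spp-17* and *spp-23* are neighbours on chromosome I, from 1016405 to 1019157, and in *gas-1* compared to wt gave -0.75 and 0.85. *spp-10* and *spp-8*, on chromosome IV from 8477180 to 8483621, were called higher in all 3 comparisons. Of all genes 13.5% were higher in the double mutants than in *gas-1*. Relative to wt 44.0% were higher in *gas-1* and 44.5% in the double mutants.

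Saposin-like genes below the filter were *spp-6*, *spp-7*, *spp-9*, *spp-11*, *spp-12*, *spp-19*, *spp-20*, *spp-21*, *spp-25*, *spp-26*, *spp-29*, *spp-30* and *spp-31*. Their strain means reached at most 0.689 FPKM, in *spp-31*. When no filter was applied, 1 of these 13 genes (*spp-20*) was higher and none lower in the double mutants compared to *gas-1*, 4 were higher and none lower in *gas-1* compared to wt, and 6 were higher and none lower in *age-1; gas-1* compared to wt. Of all 19874 genes tested in this way 10.3%, 37.9% and 40.2% were higher in the same comparisons, so that these shares of 13 genes were near those of all genes.

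Intestinal markers were counted beside these genes, of which several are known from the intestine. In *gas-1* compared to wt 6 of 8 rose with a median of 0.85, where 44.0% of all genes rose. Between the mutants 1 rose (*ges-1*, the gut esterase, 1.11) and 1 fell (*act-5*, the actin of the microvilli, by 0.44), with a median of -0.17. Of all genes 13.5% rose and 19.5% fell there. Their summed level ranged from 795 to 982 FPKM in *age-1; gas-1*, 849 to 1126 FPKM in *gas-1* and 470.1 to 776 FPKM in wt, none being listed at 0. The marker sums overlapped between both mutants. The part of intestinal RNA in the levels of the saposin-like genes was not tested. Among 14 regulators of intestinal immunity tested, 3 rose and 2 fell in the double mutants compared to *gas-1*, against 13.5% and 19.5% of all genes, with a median of 0.14. Those with the smallest adjusted p were the MAP kinase phosphatase gene *vhp-1* (0.59, limma adjusted p = 0.0004), *hlh-30*, which encodes a TFEB homolog (0.33, adjusted p = 0.0024), and the nuclear receptor gene *nhr-86* (-0.25, adjusted p = 0.0091). *elt-2*, the GATA factor that drives most intestinal genes, averaged 2.70 and 2.42 FPKM in *age-1; gas-1* and *gas-1* (limma adjusted p = 0.31) and 1.41 FPKM in wt. Of the 14, 11 rose and 1 fell in *gas-1* compared to wt, with the bZIP gene *zip-2* at 1.41 (limma adjusted p = 2.1e-08), and in *age-1; gas-1* compared to wt 10 rose and 2 fell. The shares of all genes were 44.0% and 24.6%, and 44.5% and 31.2%.

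Of the infection-response genes outside the peptide families, 8 of 10 could be tested. In the double mutants compared to *gas-1* 5 rose and 1 fell, against 13.5% and 19.5% of all genes, with a median of 1.12. *irg-1* averaged 7.03, 1.14 and 0.254 FPKM in *age-1; gas-1*, *gas-1* and wt, and *irg-2* averaged 10.1, 2.62 and 0.241 FPKM, rising by 2.56 and 1.87 compared to *gas-1* (limma adjusted p = 2.1e-05 and 0.00011). *irg-5* averaged 0.434, 1.35 and 3.03 FPKM and fell by 1.49 (adjusted p = 0.0001). Relative to wt, *gas-1* mutants had 4 of the 8 genes higher and 3 lower (2 and 3 when quantile normalized), among them *sysm-1*, which rose by 3.37 (limma adjusted p = 1.1e-06). Of all genes 44.0% were higher and 24.6% lower (26.2% and 38% when quantile normalized).

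The defensin-like genes were low throughout. *abf-2*, whose peptide acts against bacteria and yeast and is known from the pharynx, had 2.64, 4.13, 3.76, 3.12 and 3.86 FPKM in *age-1; gas-1*, against 1.59, 1.85, 1.38, 1.83 and 1.77 FPKM in *gas-1* and 0.0914, 0.157, 0.0868, 0.128 and 0.133 FPKM in wt. The 3 strains did not overlap. *abf-2* rose by 1.00 compared to *gas-1* (SE 0.14, limma adjusted p = 0.00012), by 3.03 in *gas-1* compared to wt (adjusted p = 4.7e-10) and by 4.03 in *age-1; gas-1* compared to wt (adjusted p = 2.7e-11), and on this scale the last 2 values understate the change, since wt was near the pseudocount of 0.1 FPKM. The strain means differed by 14.1-fold and 29.4-fold. *abf-2* passed the filter through the mutants alone, which left little room for anything but a rise relative to wt. Of 7 pharyngeal markers tested, 2 passed as higher than wt in the double mutants and 1 in *gas-1*, against 44.5% and 44.0% of all genes. The summed level of the markers overlapped in the 3 strains (241 to 368, 208 to 301 and 177 to 367 FPKM). Whether pharyngeal RNA had a part in the level of *abf-2* was not tested.

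*abf-6* had 5.48, 5.04, 7.52, 6.30 and 4.37 FPKM in *age-1; gas-1*, against 4.71, 3.22, 4.82, 4.05 and 4.72 FPKM in *gas-1* and 3.58, 4.04, 3.63, 2.72 and 4.05 FPKM in wt. The double mutants overlapped with *gas-1* and not with wt. It rose by 0.65 in *age-1; gas-1* compared to wt (SE 0.15, limma adjusted p = 0.0015), a call lost after quantile normalization (0.18, adjusted p = 0.22), and gave 0.40 compared to *gas-1* (adjusted p = 0.061). The last value passed the test after median-of-ratios rescaling (0.40, limma adjusted p = 0.039), without *age-1; gas-1* replicate 5 (0.49, adjusted p = 0.028) and without the 4 sperm-poor libraries (0.47, adjusted p = 0.029). For *gas-1* compared to wt it gave 0.25 (limma adjusted p = 0.17), and 0.35 without those libraries (adjusted p = 0.034). *abf-1*, *abf-3*, *abf-4* and *abf-5* had no strain mean above 0.583 FPKM.

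Among the epidermal and glycine-rich genes, *nlp-24* stood out. It encodes a glycine-rich peptide precursor and lies on chromosome V from 11616376 to 11616828, apart from the other *nlp* genes. It had 15.4, 12.1, 12.7, 16.1 and 12.9 FPKM in *age-1; gas-1*, against 40.1, 33.1, 41.1, 42.2 and 37.7 FPKM in *gas-1* and 15.9, 23.3, 15.2, 16.7 and 19.9 FPKM in wt. All *gas-1* libraries lay above all others, and the double mutants overlapped with wt. *nlp-24* fell by 1.49 in the double mutants compared to *gas-1* (SE 0.12, limma adjusted p = 6.7e-07), rose by 1.10 in *gas-1* compared to wt (SE 0.12, adjusted p = 1.9e-06) and fell by 0.39 in *age-1; gas-1* compared to wt (adjusted p = 0.0083). *glb-15*, which overlaps it on the opposite strand, averaged 0.358, 0.328 and 0.133 FPKM in *age-1; gas-1*, *gas-1* and wt.

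*nlp-25* followed the same course at a low level, with 0.778, 0.365, 0.785, 1.19 and 0.511 FPKM in *age-1; gas-1*, against 2.05, 1.57, 2.202, 1.89 and 1.67 FPKM in *gas-1* and 0.778, 0.848, 0.498, 0.430 and 1.82 FPKM in wt. The double mutants were below all *gas-1* libraries, whereas wt replicate 5 reached the *gas-1* range. *nlp-25* passed the filter mainly through *gas-1*, which left little room for anything but a higher level there. It fell by 1.34 compared to *gas-1* (limma adjusted p = 0.0056) and rose by 1.17 in *gas-1* compared to wt (adjusted p = 0.0052), the second call being lost after quantile normalization (0.51, adjusted p = 0.11). No other *nlp* gene was called between the mutants.

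The best known epidermal peptide genes, *nlp-27* to *nlp-31* and *nlp-34*, form a cluster of 10.9 kb on chromosome V, from 3978825 to 3989770. Reads could have been shared between similar genes of this cluster, which was not tested. *nlp-29*, the usual reporter of epidermal infection and wounding, had 5.83, 4.05, 6.13, 6.07 and 5.20 FPKM in *age-1; gas-1*, against 5.12, 3.12, 5.41, 4.48 and 3.33 FPKM in *gas-1* and 1.55, 1.49, 1.92, 0.890 and 1.96 FPKM in wt. Both mutants lay above wt without overlap and overlapped with each other. *nlp-29* rose by 1.41 in *gas-1* (SE 0.21, limma adjusted p = 3.6e-05) and by 1.77 in *age-1; gas-1* compared to wt (adjusted p = 2.6e-06), and gave 0.36 between the mutants (adjusted p = 0.21).

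*nlp-28* had 14.1, 12.6, 14.1, 17.2 and 14.4 FPKM in *age-1; gas-1*, against 12.7, 7.95, 11.5, 10.6 and 12.3 FPKM in *gas-1* and 6.20, 5.84, 9.68, 4.31 and 8.82 FPKM in wt. *nlp-31*, which encodes a peptide with antifungal activity, had 11.4, 9.40, 10.6, 10.1 and 9.18 FPKM in *age-1; gas-1*, against 10.2, 6.95, 8.96, 8.80 and 8.51 FPKM in *gas-1* and 5.73, 5.40, 6.59, 3.22 and 7.15 FPKM in wt. In both genes the double mutants lay above wt, and *gas-1* overlapped with each of them. *nlp-28* rose by 0.69 in *gas-1* and by 1.09 in *age-1; gas-1* compared to wt (limma adjusted p = 0.005 and 0.00011), and *nlp-31* by 0.66 and 0.88 (adjusted p = 0.0034 and 0.00027). After quantile normalization the *gas-1* calls of both were lost (0.40 and 0.32, adjusted p = 0.058 and 0.085).

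*nlp-30*, which passed the filter through the mutants alone, averaged 0.907, 0.917 and 0.506 FPKM in *age-1; gas-1*, *gas-1* and wt and was called higher in both mutants compared to wt (0.73 and 0.70, limma adjusted p = 0.031 and 0.042), but leaving out any of 5 single libraries ended the first call and any of 7 the second (largest adjusted p = 0.082 and 0.11), and both values turned negative after quantile normalization (-0.23 and -0.10). *nlp-27*, the most abundant of the cluster with means of 36.3, 44.1 and 41.2 FPKM, was not called in any comparison, nor were *nlp-33* with 14.1, 15.04 and 15.9 FPKM and *nlp-26* with 3.02, 3.92 and 3.42 FPKM. *nlp-32* and *nlp-34* stayed below the filter. Of the 9 *nlp* genes tested, 6 rose and none fell in *gas-1* compared to wt (5 and 0 by median-of-ratios, 2 and 0 when quantile normalized), where 44.0% of all genes were higher (36.4% and 26.2%). The 6 include *nlp-30* and also *nlp-25*, which passed the filter mainly through *gas-1*. In *age-1; gas-1* compared to wt 4 rose and 1 fell (3 and 1, or 3 and 3), where 44.5% and 31.2% of all genes did (39.3% and 37.3%, or 28.8% and 42.9%).

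**Figure D5:**
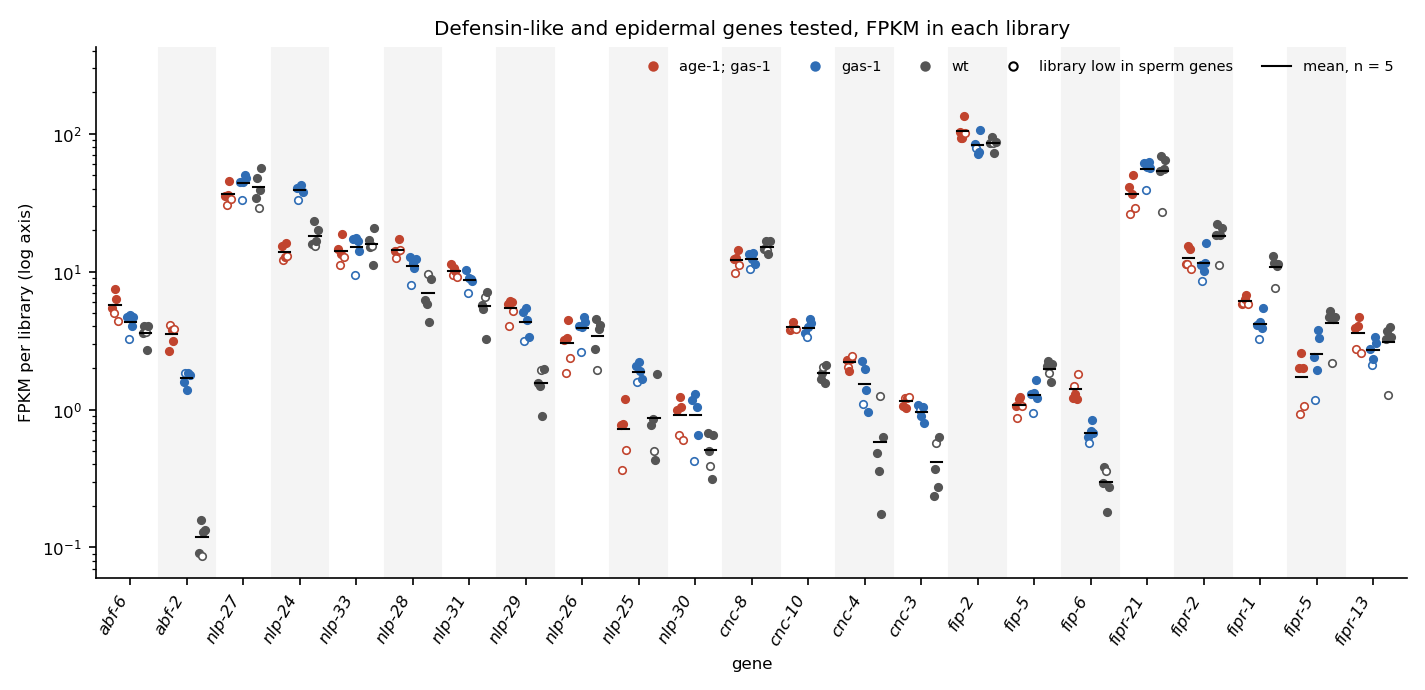
FPKM of the 2 defensin-like and 21 epidermal and glycine-rich genes tested in each library (log axis), by family, with *age-1; gas-1*, *gas-1* and wt side by side; lines are means (n = 5) and open points the libraries low in sperm genes. *nlp-24* is highest in *gas-1* mutants without overlap, *nlp-29* is lowest in wt, and *fipr-1* is highest in wt.

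The caenacin genes *cnc-3*, *cnc-4* and *cnc-10* were called higher in both mutants than in wt, of which only *cnc-10* was called in both after quantile normalization. Of all genes 44.5% were higher than wt in the double mutants and 44.0% in *gas-1* (28.8% and 26.2% when quantile normalized). *cnc-10* averaged 3.94 ± 0.221 FPKM in *age-1; gas-1* and 3.92 ± 0.476 FPKM in *gas-1*, against 1.84 ± 0.236 FPKM in wt (SD, n = 5 each), a rise of 1.07 and 1.05 (limma adjusted p = 2.4e-07 and 5.3e-07). *cnc-3*, which passed the filter through the mutants alone, averaged 1.15, 0.962 and 0.416 FPKM and *cnc-4* averaged 2.19, 1.53 and 0.582 FPKM in *age-1; gas-1*, *gas-1* and wt. In wt *cnc-4* reached 1 FPKM only in replicate 3 (1.26 FPKM), so that it passed the filter mainly through the mutants. In *gas-1* compared to wt *cnc-3* and *cnc-4* rose by 1.10 and 1.39 (limma adjusted p = 0.0002 and 0.0023), which did not pass after quantile normalization (0.23 and 0.67, adjusted p = 0.46 and 0.11). In the double mutants they rose by 1.34 and 1.95 compared to wt (limma adjusted p = 2.3e-05 and 0.00011), and the call of *cnc-3* was lost after quantile normalization (0.31, adjusted p = 0.30). These 2 genes lie with *cnc-11*, *cnc-1*, *cnc-5* and *cnc-2* in a cluster of 7.8 kb on chromosome V, from 1442342 to 1450183, and those 4 genes stayed below the filter, as did *cnc-6*, *cnc-7* and *cnc-9*.

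*cnc-8*, on chromosome X, moved the other way. It had 12.4, 9.80, 12.6, 14.4 and 11.1 FPKM in *age-1; gas-1*, against 13.4, 10.4, 12.4, 13.7 and 11.4 FPKM in *gas-1* and 14.7, 16.8, 14.2, 13.5 and 16.8 FPKM in wt. The mutants were lower than wt with an overlap of 1 library each. *cnc-8* fell by 0.31 in *gas-1* (SE 0.10, limma adjusted p = 0.016) and by 0.34 in *age-1; gas-1* compared to wt (adjusted p = 0.0086). Its neighbour *fip-5*, with means of 1.08, 1.28 and 1.98 FPKM, fell by 0.60 in *gas-1* and by 0.81 in the double mutants compared to wt (limma adjusted p = 0.0018 and 0.00012). Between them lies *fipr-21*, which averaged 36.4 ± 9.51 FPKM in *age-1; gas-1*, 55.5 ± 9.42 FPKM in *gas-1* and 53.8 ± 16.3 FPKM in wt (SD, n = 5 each). It gave -0.63 in the double mutants compared to *gas-1* (limma adjusted p = 0.059), and without the 4 sperm-poor libraries it passed at -0.50 (adjusted p = 0.0058). Relative to wt it gave -0.53 in the double mutants (limma adjusted p = 0.057), and -0.52 without those libraries (adjusted p = 0.0011).

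*fipr-1* and *fipr-2*, neighbours on chromosome V from 12361301 to 12365869, were highest in wt. *fipr-1* had 5.82, 5.87, 6.32, 6.75 and 5.81 FPKM in *age-1; gas-1*, against 4.11, 3.22, 4.32, 3.91 and 5.43 FPKM in *gas-1* and 13.0, 11.5, 7.66, 10.9 and 11.3 FPKM in wt. The 3 strains did not overlap. It rose by 0.55 in the double mutants compared to *gas-1* (SE 0.14, limma adjusted p = 0.0072), and fell by 1.35 in *gas-1* (adjusted p = 1.3e-06) and by 0.80 in *age-1; gas-1* compared to wt (adjusted p = 0.0001). *fipr-2* had 11.3, 11.4, 15.3, 14.5 and 10.4 FPKM in *age-1; gas-1*, against 11.2, 8.51, 10.2, 11.5 and 16.2 FPKM in *gas-1* and 18.3, 22.3, 11.1, 18.3 and 20.9 FPKM in wt. The mutants overlapped with each other, and with wt only through wt replicate 3. It fell by 0.65 in *gas-1* compared to wt (limma adjusted p = 0.008) and by 0.51 in *age-1; gas-1* compared to wt (adjusted p = 0.027), and the second call ended on leaving out any of 5 single libraries, namely those of wt replicates 2 and 5 and of double mutant replicates 1, 2 and 5 (-0.42 to -0.48, largest adjusted p = 0.071).

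*fip-2*, the most abundant epidermal and glycine-rich gene, had 103, 93.8, 93.7, 134 and 102 FPKM in *age-1; gas-1*, against 83.6, 78.1, 71.2, 73.2 and 106 FPKM in *gas-1* and 85.3, 95.0, 85.4, 72.6 and 86.9 FPKM in wt. The 3 strains overlapped. It was called higher in the double mutants than in *gas-1* (0.36, SE 0.12, limma adjusted p = 0.029) and in wt (0.30, adjusted p = 0.029). Without *age-1; gas-1* replicate 4 these were 0.27 and 0.21 (adjusted p = 0.072 and 0.083), and leaving out *gas-1* replicate 2, 3 or 4 also ended the first call, and leaving out wt replicate 4 the second (adjusted p = 0.078). The first call was also lost without the 4 sperm-poor libraries (0.40, limma adjusted p = 0.062), and the second after median-of-ratios rescaling (0.18, adjusted p = 0.17). *fip-6* averaged 1.40 ± 0.258, 0.681 ± 0.0972 and 0.299 ± 0.0789 FPKM in *age-1; gas-1*, *gas-1* and wt (SD, n = 5 each) with no overlap between strains, a rise of 0.93 compared to *gas-1* (limma adjusted p = 0.0007). It passed the filter through the double mutants alone, with *gas-1* at most at 0.834 FPKM, which left little room for anything but a rise in them. In *gas-1* compared to wt its value of 0.99 (limma adjusted p = 0.00013) became -0.08 after quantile normalization. *fipr-5* averaged 1.72, 2.52 and 4.25 FPKM and fell by 1.29 in *age-1; gas-1* compared to wt (limma adjusted p = 0.0034), and *fipr-13*, with 3.59, 2.72 and 3.10 FPKM, was not called. Without the 4 sperm-poor libraries *fipr-13* passed as higher between the mutants (0.54, limma adjusted p = 0.0073) and lower in *gas-1* compared to wt (-0.31, adjusted p = 0.030), and *fipr-5* as lower in *gas-1* compared to wt (-0.77, adjusted p = 0.0025). Of the 5 *fipr* genes, 2 were then higher and 1 lower between the mutants, where 1 and 0 were with all libraries, and 4 were lower in *gas-1* compared to wt, where 2 were with all libraries. Without those libraries 13.9% and 18.5% of all genes were higher and lower between the mutants. In *gas-1* compared to wt 27.9% were lower.

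The other 24 *fipr* genes (*fipr-3*, *fipr-4*, *fipr-6* to *fipr-12*, *fipr-14* to *fipr-20*, *fipr-22* to *fipr-29*) and *fip-1*, *fip-3*, *fip-4* and *fip-7* were below the filter. Several of these genes are close copies of one another and lie in clusters, such as *fipr-4* to *fipr-9* on chromosome V from 10220981 to 10239961, and reads shared between copies could have been divided among them, so single values are uncertain. Whether this also holds for clustered genes that were tested, such as *fipr-1* and *fipr-2*, was not tested. When no filter was applied, 32 of the epidermal and glycine-rich genes below it had values above 0. Of these, 6 were higher and none lower in the double mutants compared to *gas-1*, 9 were higher and 4 lower in *gas-1* compared to wt, and 10 were higher and 4 lower in *age-1; gas-1* compared to wt. The shares over all genes without a filter were 10.3% higher and 12.2% lower, 37.9% and 15.3%, and 40.2% and 19.2% in these comparisons, and the counts relative to wt are thus not above those of all genes.

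Summed over the 58 epidermal and glycine-rich genes, the level was 296, 248, 286, 363 and 269 FPKM in *age-1; gas-1*, against 329.8, 251, 309.5, 329 and 346 FPKM in *gas-1* and 288, 338, 238, 268 and 340.4 FPKM in wt. The 3 strains overlapped, and the lowest sums of each strain came from the sperm-poor libraries. In 9 of the 40 genes tested (22.5%) these libraries were below all others of their strain in all 3 strains, compared to 12.9% of all genes tested. The 9 genes were *nlp-26*, *nlp-27*, *spp-13*, *spp-16*, *spp-22*, *spp-23*, *fipr-5*, *fipr-13* and *fipr-21*. No gene of the 40 was above all others in these libraries, compared to 8.89% of all genes. The part of what separates these libraries in the levels of the 9 genes was not tested.

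Genes of the cascade that induces epidermal peptides were counted beside the shares of all genes. Of 15 genes tested, 13 rose and 1 fell in *gas-1* compared to wt, where 44.0% and 24.6% of all genes did, with a median of 0.51. The counts were 10 and 1 by median-of-ratios and 9 and 1 when quantile normalized, where 36.4% and 34.7%, or 26.2% and 38%, of all genes were called so. In *age-1; gas-1* compared to wt 13 rose and 1 fell as well, against 44.5% and 31.2% of all genes, with a median of 0.68. The adaptor gene *tir-1* averaged 50.7, 58.1 and 10.2 FPKM in *age-1; gas-1*, *gas-1* and wt, and rose by 2.56 in *gas-1* compared to wt (limma adjusted p = 2.1e-07). *nipi-3*, which encodes a Tribbles-like pseudokinase, averaged 37.3, 34.4 and 15.7 FPKM and rose by 1.14 (limma adjusted p = 1.6e-07). Between the mutants 3 of the 15 rose and 2 fell, against 13.5% and 19.5% of all genes. *pmk-1*, the MAP kinase gene of the cascade, averaged 15.8, 31.1 and 11.4 FPKM in *age-1; gas-1*, *gas-1* and wt and fell by 0.97 in the double mutants compared to *gas-1* (limma adjusted p = 1.1e-05), whereas *sek-1* rose by 0.23 (adjusted p = 0.014).

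The DBL-1 pathway was tested through 9 of 10 genes, since *dbl-1* itself averaged 0.504, 0.541 and 0.415 FPKM and fell below the filter. In *gas-1* mutants 7 rose and none fell compared to wt (5 and 0 by median-of-ratios, 4 and 1 when quantile normalized). Of all genes 44.0% rose and 24.6% fell (36.4% and 34.7%, or 26.2% and 38%). In the double mutants compared to *gas-1* 4 rose and none fell, against 13.5% and 19.5% of all genes. *sma-10*, which encodes a receptor-binding transmembrane protein, averaged 58.4, 33.6 and 22.5 FPKM in *age-1; gas-1*, *gas-1* and wt and rose by 0.80 between the mutants (limma adjusted p = 0.00028). Of 13 epidermal markers 11 were higher than wt in each mutant strain, against 44.5% of all genes for the double mutants and 44.0% for *gas-1*. Their medians were 1.86 for the double mutants and 2.34 for *gas-1*. The 21 epidermal and glycine-rich peptide genes had medians of -0.15 and 0.23. Between the mutants 1 marker rose, where 13.5% of all genes did. The summed level of the markers was 847 to 1081 FPKM in *age-1; gas-1*, 754 to 1006 FPKM in *gas-1* and 653 to 1065 FPKM in wt, and the furrow collagen gene *dpy-7* averaged 13.1, 8.74 and 1.31 FPKM. The part of the epidermis in the *nlp* and *cnc* values was not tested.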

How the data were processed

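Whole nematodes of the 3 strains were profiled by stranded mRNA sequencing with 5 libraries per strain. The authors deposited 1 table of FPKM values per library, and their processing notes name Cufflinks 2.1.1, Cuffdiff, STAR 2.4.0h, CASAVA 1.8.2 and FastQC 0.10.1, without their order. Neither the genome build nor a strand setting for the counting is given in the sources used here. FPKM are not counts and keep no read totals, so low values are less certain to an unknown degree. An exact 0 may be a failed estimate.

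The test was that of limma 3.58.1 (R 4.3.3) on log2(FPKM + 0.1) (variance trend, all 15 libraries in 1 fit, no block), on the 11648 genes with 1 FPKM or more in no fewer than 5 libraries. P-values were adjusted over all genes tested (Benjamini-Hochberg) and genes were called at 5% FDR. Fold changes on this scale understate the change of low genes. Each strain has 5 libraries that the labels number as replicates, and p-values measure the spread between them. Positions come from the WBcel235 annotation, matched by gene ID. Antisense overlaps could not be resolved without the strand setting.

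The peptide genes, the lists of pathway and marker genes and the exclusion of the 4 sperm-poor libraries were chosen with earlier results of these data known. Values in every library are given for the 21 peptide genes with a strain mean of 5 FPKM or more and a call in any comparison, and those of pathway lists named are mostly the 3 with the smallest adjusted p per comparison. *abf-2*, *nlp-25*, *elt-2* and the single markers were picked outside this rule, after their values were seen. Alternatives covered pseudocount, filter, scaling, trend, FDR, the libraries fitted, a replicate block and leaving out each library. The fit was tested on simulated data. Figures were drawn with matplotlib 3.10.9 in Python 3.11.15.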

Additional observations from a re-analysis of the deposited data

Results flagged for a closer look

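In 4 of 63 sets of 5 libraries (the 21 genes given library by library, in 3 strains), 1 library lay apart from the other 4 by Dixon's criterion, which chance meets in about 1 of 20 sets. *spp-3* had 14.6 FPKM in wt replicate 3, against 20.4 to 21.5 FPKM in the other wt libraries. *fipr-2* had 11.1 FPKM in the same library, against 18.3 to 22.3 FPKM in the others. *spp-17* had 99.3 FPKM in *gas-1* replicate 2, against 75.2 to 79.7 FPKM in the other *gas-1* libraries. Both of these libraries are among the 4 that were low in sperm genes. *fip-2* had 134 FPKM in *age-1; gas-1* replicate 4, against 93.7 to 103 FPKM in the other double mutant libraries, and its calls in the double mutants were lost without this library.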

How the results depend on the processing

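Over 28 alternative settings, the counts of called genes stayed within 1.5 times those reported except as follows. Without a filter on low values 31 of 89 genes were higher in *gas-1* than in wt, where 37.9% of all genes were. Of the same 89, 42 were higher and 10 lower in the double mutants than in wt, against 40.2% and 19.2% of all genes. A filter of 5 FPKM left 23 genes, of which 1 was lower in the double mutants than in *gas-1*, 8 were higher in *gas-1* than in wt and 14 were higher in the double mutants than in wt. Of all genes under that filter 25.5%, 38% and 37.8% were called in the same directions. Quantile normalization gave 4 lower genes in the double mutants compared with *gas-1* and 8 higher genes in *gas-1* compared with wt, against 22.7% and 26.2% of all genes. These filters test other numbers of genes, and the cause of the change under quantile normalization was not tested. Leaving out single libraries moved no count by over 1.5 times. With the replicate number as a replicate block the counts were 16 higher and 2 lower between the mutants, 18 and 8 for *gas-1* and 26 and 6 for the double mutants compared with wt, with *fip-2* no longer called between the mutants (limma adjusted p = 0.051) and *spp-4* called in the double mutants compared with wt (0.22, adjusted p = 0.046). Of all genes 12.8% and 18.5%, 43.3% and 24.2%, and 44.1% and 30.9% were called higher and lower with this block. The labels do not say that a number marks a shared batch, the deviations of same-numbered libraries correlated at between -0.76 and 0.79, and not every library correlated best with its own number. No called value of the 21 genes given library by library changed its sign. The unknown number of reads limits all values near or below 1 FPKM.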
